A study of Homo sapiens with 10 samples.

Results

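The 9 genes described here, DHRS2, LIN28A, GNG4, AACSP1, ZCCHC14, MEX3A, FOLR1, SOWAHA and MCFD2, were chosen by their RNA level, which had been seen as much higher in T47D cells with silenced CHD4 than in those with silenced TRPS1. They are 9 of the 19695 genes in the count tables, and all 9 are in both tables. A difference between these knockdowns can come from a higher level upon CHD4 silencing, from a lower level upon TRPS1 silencing, or from both, so each gene was set against the control libraries. The comparison of CHD4 siRNA with TRPS1 siRNA chose the genes and is given as a description, with no test. The comparisons with control siRNA use the same knockdown libraries, so their p-values are not independent of that choice either.

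T47D cells, a human line of luminal breast cancer, received an siRNA against TRPS1, an siRNA against CHD4 or control siRNA and were collected 72 h after transfection, and ribosomal RNA was depleted before RNA-sequencing (RNA-seq). Each condition has 2 libraries, and the knockdowns share the same 2 control libraries. The labels and the study's RNA interference methods name a CHD4 siRNA, whereas its RNA-seq methods name an shRNA, and which siRNA sequence entered which library is not given in the sources used here. The sources do not say whether the 2 libraries of a condition came from separate cultures, so p-values measure the spread between these libraries, which may be technical. A separate chromatin immunoprecipitation-sequencing (ChIP-seq) experiment with TRPS1 antibodies in T47D cells gave 1 list of peaks.

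CHD4 is an ATP-dependent chromatin remodeler and the motor of the nucleosome remodeling and deacetylase (NuRD) complex, which joins remodeling with histone deacetylation and is mostly known for keeping genes silent. TRPS1 is a GATA-type zinc finger protein that, unlike the classical GATA factors, acts mainly as a repressor, and it is abundant in luminal breast cells. The study asked whether TRPS1 represses through CHD4 and NuRD, and the 9 genes are among those whose levels differed between the knockdowns.

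The libraries held 10333138 to 14668358 counts. Levels are given as normalised CPM, CPM being counts relative to the total of the library, scaled by the trimmed mean of M-values (TMM) over the 6 libraries, and 3 counts correspond to 0.197 to 0.288 normalised CPM. These levels are not corrected for gene length, so they are compared between libraries for 1 gene and not between genes. CHD4 itself stood at 301 and 286 normalised CPM with control siRNA, 302 and 268 with TRPS1 siRNA, and 95.7 and 54.3 with CHD4 siRNA. TRPS1 stood at 1446 and 2271 with control siRNA, 1165 and 722 with TRPS1 siRNA, and 2449 and 1587 with CHD4 siRNA. Each target was lower in both libraries with its own siRNA. CHD4 stood at 0.256 times its control mean, and for TRPS1 the control mean was 1.97 times that with its siRNA. Control replicates 1 and 2 taken alone stood at 1.53 and 2.41 times the TRPS1 mean with its siRNA. At a log2 fold change of -0.97 in edgeR, TRPS1 itself fell short of the over 2-fold required for the calls below. Control replicate 1 stood apart from the other 5 libraries: the first principal component, with 63.4% of the variance, placed it at -114 and the others between 8.86 and 31.2. Each gene is therefore set against both control libraries separately. The luminal markers ESR1, PGR, GATA3, FOXA1, KRT8, KRT18, KRT19, EPCAM and CDH1 were present in every library. Of 6 markers of other cell types, PTPRC (leukocytes), PECAM1 (endothelium) and the basal keratins KRT5 and KRT14 had at most 6 counts in any library. The remaining markers were present in every library: COL1A1 (fibroblasts) had 738 to 2134 counts and ACTA2 (myoepithelial cells or fibroblasts) 168 to 429. In bulk RNA, fewer cells expressing a gene and less RNA per cell cannot be told apart.

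The RefSeq table (GRCh38.p14) gave a start and an upstream sequence for 6 of the 9 genes. The 250 bases before the start of 4 of them are shown, because these genes span both kinds of call found here. DHRS2 and GNG4 were called higher upon CHD4 silencing, SOWAHA and MCFD2 lower upon TRPS1 silencing. GNG4 also lay below both controls with TRPS1 siRNA, but was not called there. Sequences run 5′ to 3′ on the strand of the gene and end at the base before its start. Capitals mark the 6-letter GATA elements, the TATA box and the CCAAT box on either strand. A GATA element was counted where the window read AGATAA or, with another last letter, AGATAG, and likewise where T stood first in place of A. The TATA box was searched on either strand by the 6 letters TATAAA.
DHRS2, chr14:23629865-23630114, plus strand: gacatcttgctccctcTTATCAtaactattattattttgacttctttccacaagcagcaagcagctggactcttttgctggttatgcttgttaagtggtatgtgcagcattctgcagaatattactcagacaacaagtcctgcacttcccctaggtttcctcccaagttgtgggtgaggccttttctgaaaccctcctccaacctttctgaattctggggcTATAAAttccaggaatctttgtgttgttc
GNG4, chr1:235650609-235650858, minus strand: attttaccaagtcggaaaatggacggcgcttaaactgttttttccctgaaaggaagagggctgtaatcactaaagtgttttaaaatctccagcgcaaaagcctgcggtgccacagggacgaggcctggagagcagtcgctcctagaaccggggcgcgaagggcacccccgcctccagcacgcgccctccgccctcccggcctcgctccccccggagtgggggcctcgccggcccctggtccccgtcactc
SOWAHA, chr5:132813052-132813301, plus strand: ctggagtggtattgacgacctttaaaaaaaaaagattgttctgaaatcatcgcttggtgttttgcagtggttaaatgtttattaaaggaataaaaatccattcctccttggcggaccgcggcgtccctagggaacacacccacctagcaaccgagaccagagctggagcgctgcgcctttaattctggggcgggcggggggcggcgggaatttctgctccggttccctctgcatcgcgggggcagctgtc
MCFD2 (the first of 3 listed starts), chr2:46916113-46916362, minus strand: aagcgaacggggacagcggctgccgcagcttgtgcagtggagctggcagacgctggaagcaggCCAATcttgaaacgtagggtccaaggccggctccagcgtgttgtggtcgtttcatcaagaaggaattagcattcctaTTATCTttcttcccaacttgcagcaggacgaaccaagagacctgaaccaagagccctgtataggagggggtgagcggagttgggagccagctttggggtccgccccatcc

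The sequence before DHRS2 differs in composition from the others. It has a GC content of 43.2% and no CpG dinucleotide, whereas GNG4 has 62.4% and a CpG observed to expected ratio of 0.83, and SOWAHA has 53.2% and 0.91. The window shown for MCFD2 has 57.2% and a ratio of 0.595. A ratio of 0.6 or more was found in 47.5% of all 35116 listed promoters. DHRS2 also holds TATAAA, at 29 to 24 bases before the start, which 10.7% of all promoters hold. A 6-letter GATA element lies before DHRS2 (TTATCA, which reads TGATAA on the other strand, 234 to 229 bases upstream) and before MCFD2 (TTATCT, 110 to 105 bases upstream of the first start), so 2 of the 6 genes hold one, beside 22.3% of all promoters. That share counts listed starts and not genes. MCFD2 has 3 listed starts: the windows of starts 1 and 2 overlap and share this element, and the window of start 3 has no such element. None lies in these windows of GNG4, SOWAHA, ZCCHC14 or MEX3A. The window of ZCCHC14 has a GC content of 72.4% and 3 CCAAT boxes, and each window of MCFD2 has 1. At least 1 CCAAT box was found in 32.0% of all promoters. These are matches of letters only.

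Over the 9 genes, 4 were called higher with CHD4 siRNA than with control siRNA (DHRS2, LIN28A, GNG4 and AACSP1), and 3 were called lower with TRPS1 siRNA than with control siRNA (FOLR1, SOWAHA and MCFD2). A call means a fold change over 2 with an unadjusted p under 0.05 in edgeR's quasi-likelihood test, the threshold the study used. Among all genes tested, 2.60% were called higher with CHD4 siRNA and 3.17% were called lower with TRPS1 siRNA. None of the 9 was called lower with CHD4 siRNA (2.85% of all genes) or higher with TRPS1 siRNA (2.70%), and ZCCHC14 and MEX3A were called in neither comparison. At an adjusted p under 0.05, edgeR's likelihood ratio test found DHRS2, LIN28A and GNG4 higher with CHD4 siRNA (0.356% of all genes) and DESeq2 found DHRS2, LIN28A and AACSP1 higher (0.263%). Neither tool found any of the 9 lower with TRPS1 siRNA (0.0929% and 0.170% of all genes), where DESeq2 gave no adjusted p for DHRS2 and GNG4. After Benjamini-Hochberg adjustment over all genes no gene of the tables passed 0.05 in either edgeR quasi-likelihood comparison, with 769 genes (5.95%) and 902 genes (6.98%) at an unadjusted p under 0.05 for CHD4 siRNA and TRPS1 siRNA. The median log2 fold change of the 9 genes was 0.97 with CHD4 siRNA, and that of the 8 tested with TRPS1 siRNA was -0.65. Over all genes tested the medians were -0.022 and -0.024. The choice of the 9 genes favoured these signs, so their medians are a description and no support for a difference. All 9 genes passed the filter on low counts with CHD4 siRNA. AACSP1 passed only through the CHD4 siRNA libraries and so had to differ, which leaves its call and its DESeq2 result without weight in these counts, and it was not tested with TRPS1 siRNA.

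**Figure D1:**
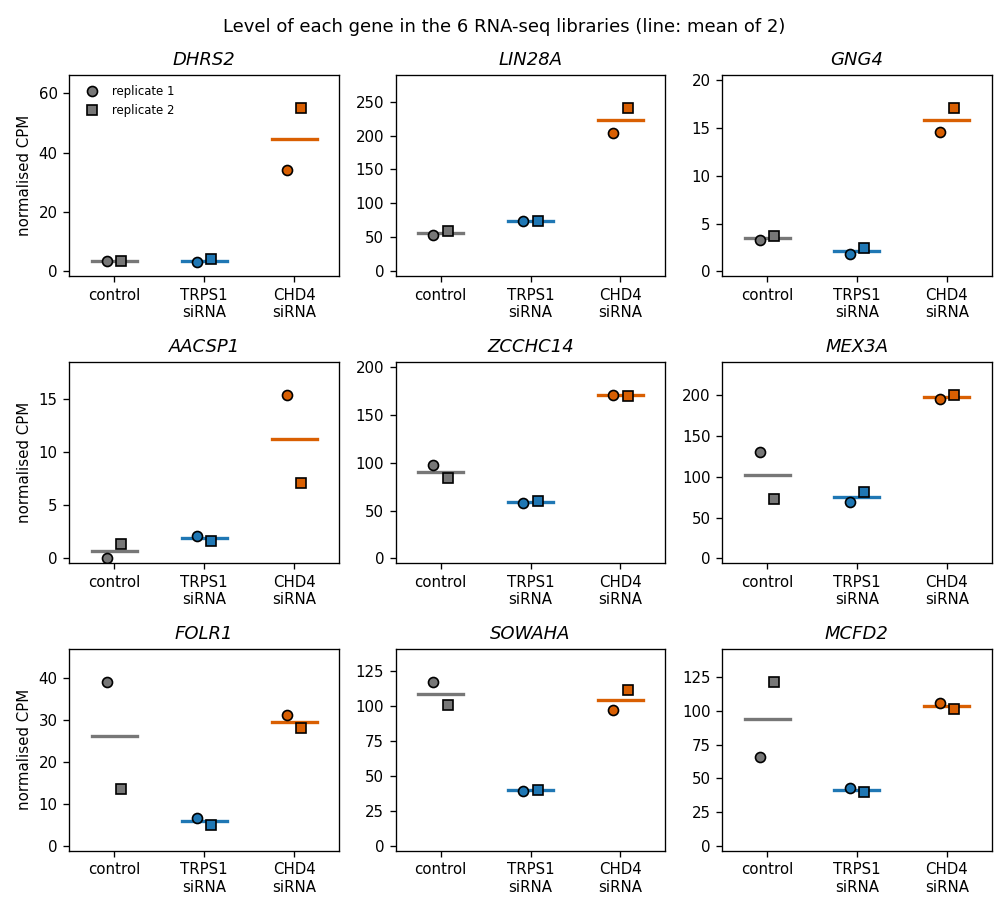
Normalised CPM (vertical axes, linear, each gene on its own scale) of the 9 genes in the 6 libraries, 2 per siRNA, with circles for replicate 1, squares for replicate 2 and lines at the mean. In the upper rows the CHD4 siRNA points stand above both control points, and in the lowest row (FOLR1, SOWAHA, MCFD2) the TRPS1 siRNA points stand below both.

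DHRS2, a mitochondrial short-chain dehydrogenase/reductase also known as HEP27, had the largest direct difference of the 9 genes. Its level was 3.45 and 3.55 normalised CPM with control siRNA, 2.97 and 4.07 with TRPS1 siRNA, and 34.2 and 55.2 with CHD4 siRNA. The CHD4 siRNA libraries stood far above the other 4, which overlapped one another. The mean with CHD4 siRNA was 44.7 ± 14.8 (SD, n = 2) against 3.50 ± 0.07 with control siRNA, a ratio of 12.8, and the ratio was 12.97 and 12.6 against control replicates 1 and 2 taken alone. In edgeR the log2 fold change was 3.68 (SE 0.48, adjusted p = 0.749) with CHD4 siRNA and 0.019 (SE 0.58, adjusted p = 0.993) with TRPS1 siRNA. By edgeR's likelihood ratio test and by DESeq2, the adjusted p with CHD4 siRNA was 5.83e-07 and 3.24e-08. The direct log2 difference between the knockdowns, 3.65 (SE 0.32), was thus nearly the whole difference between CHD4 siRNA and control siRNA.

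LIN28A encodes an RNA-binding protein that blocks maturation of the let-7 microRNAs and is known from pluripotent stem cells. It stood at 52.9 and 58.7 normalised CPM with control siRNA, 73.99 and 73.4 with TRPS1 siRNA, and 204 and 241 with CHD4 siRNA. No groups overlapped: both knockdowns lay above the controls, and CHD4 siRNA lay highest. Its mean with CHD4 siRNA was 222 ± 26.7 against 55.8 ± 4.05 with control siRNA (SD, n = 2 each), a ratio of 3.99. The log2 fold change in edgeR was 2.00 with CHD4 siRNA (SE 0.37, adjusted p = 0.749) and 0.41 with TRPS1 siRNA (SE 0.32, adjusted p = 0.709). With CHD4 siRNA the adjusted p was 0.00145 by the edgeR likelihood ratio test and 0.000706 by DESeq2. The direct log2 difference, 1.60 (SE 0.15), was smaller than the difference between CHD4 siRNA and control siRNA.

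Relatives and partners of these genes were counted from lists. Of all genes tested, 2.60% were called higher and 2.85% lower with CHD4 siRNA, and 2.70% and 3.17% with TRPS1 siRNA. Of 8 tested short-chain reductases related to DHRS2, none was called with CHD4 siRNA and 1, DHRS4L2 (log2 fold change 1.34), was called higher with TRPS1 siRNA. Of the LIN28 and let-7 pathway, 10 genes were tested with CHD4 siRNA and 1 was called, MYC, which let-7 restrains and which was lower (-1.63). MYC stood at 137 and 50.1 normalised CPM with control siRNA, 43.3 and 37.9 with TRPS1 siRNA, and 31.6 and 28.5 with CHD4 siRNA. The size of its fall thus depended on control replicate 1, and it was also lower, but not called, with TRPS1 siRNA (-1.20). The paralog LIN28B had 6 to 37 counts in each library, and HMGA2, a classical let-7 target, had 11 to 17 counts. Among pluripotency genes, none of 4 tested was called with CHD4 siRNA and SALL4 was called higher with TRPS1 siRNA (2.01).

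GNG4, a gamma subunit of heterotrimeric G proteins, was low in the controls, at 3.23 and 3.70 normalised CPM, and reached 14.55 and 17.2 with CHD4 siRNA. With TRPS1 siRNA it stood at 1.82 and 2.43, which rest on 19 and 37 counts. The 3 groups did not overlap, with TRPS1 siRNA lowest and CHD4 siRNA highest. The mean with CHD4 siRNA was 4.58 times the control mean, and the control mean was 1.63 times that with TRPS1 siRNA. On the log scale 75.7% of the distance from TRPS1 siRNA to CHD4 siRNA lay above the control mean. In edgeR the log2 fold change was 2.20 with CHD4 siRNA (SE 0.50, adjusted p = 0.792) and -0.69 with TRPS1 siRNA (SE 0.61, adjusted p = 0.731). The adjusted p with CHD4 siRNA was 0.0412 by the edgeR likelihood ratio test and 0.0852 by DESeq2. Without CHD4 replicate 2 the call was lost, with the unadjusted p above 0.05. Among other G protein beta and gamma subunits, none of 9 tested was called with CHD4 siRNA, and of 10 tested with TRPS1 siRNA GNG11 was called higher (1.98) and GNG10 lower (-1.16).

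AACSP1 is a transcribed pseudogene of AACS, the cytosolic acetoacetyl-CoA synthetase. It had 0 and 18 counts with control siRNA, 22 and 25 with TRPS1 siRNA, and 165 and 88 with CHD4 siRNA. Both knockdowns lay above both controls, and CHD4 siRNA lay highest. In normalised CPM the CHD4 siRNA libraries stood at 15.4 and 7.06 and control replicate 2 at 1.36, and the CHD4 siRNA mean was 8.26 times the level of control replicate 2. The fitted log2 fold change in edgeR, 4.04 (SE 1.28, adjusted p = 0.792), depends on how the count of 0 is treated: it was 3.05 without control replicate 1, which holds the 0, and 10.1 without control replicate 2. Without either CHD4 siRNA library AACSP1 no longer passed the filter and was not tested. DESeq2 gave an adjusted p of 0.0434 and the edgeR likelihood ratio test 0.147. Because AACSP1 entered the comparison only through the CHD4 siRNA libraries, where it is high, neither its call nor these p-values support a difference, and its counts stand as a description. Pseudogene and parent share sequence, so reads may have been divided between them. AACS itself stood at 81.2 and 103 with control siRNA, 83.2 and 84.1 with TRPS1 siRNA, and 95.1 and 83.6 with CHD4 siRNA, with log2 fold changes of -0.035 for CHD4 siRNA and -0.13 for TRPS1 siRNA.

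ZCCHC14, a zinc finger protein known to work with the non-canonical poly(A) polymerases of the TENT4 family, lay on both sides of the control. It stood at 97.2 and 83.96 normalised CPM with control siRNA, 57.98 and 60.5 with TRPS1 siRNA, and 171 and 169.6 with CHD4 siRNA. The 3 groups did not overlap. CHD4 siRNA exceeded the control mean 1.88 times and the control mean exceeded TRPS1 siRNA 1.53 times, so 59.8% of the log distance lay above the control mean. The log2 fold changes in edgeR were 0.92 with CHD4 siRNA (SE 0.36, adjusted p = 0.792) and -0.61 with TRPS1 siRNA (SE 0.33, adjusted p = 0.664). Neither reached the 2-fold of the call. ZCCHC14 was called higher with CHD4 siRNA without control replicate 1 (log2 fold change 1.04) and when scaled by library size without TMM (1.05). None of 3 tested genes among its paralog and the partner polymerases was called in either comparison.

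MEX3A, an RNA-binding protein with KH domains of a family that acts on messenger RNA stability and translation, depended on which control library it was set against. It stood at 131 and 72.3 normalised CPM with control siRNA, 69.6 and 80.97 with TRPS1 siRNA, and 195.7 and 200.3 with CHD4 siRNA. The CHD4 siRNA libraries lay above the other 4, while TRPS1 siRNA overlapped the controls. CHD4 siRNA exceeded control replicate 1 by 1.51 times and control replicate 2 by 2.74 times. In edgeR the log2 fold change was 0.97 with CHD4 siRNA (SE 0.41, adjusted p = 0.792), and it was 0.61 without control replicate 2 and 1.47, and called, without control replicate 1. MEX3A was also called with library sizes alone (1.11) and with only genes over 2 CPM in every library (1.03). With TRPS1 siRNA it was -0.43 (SE 0.40, adjusted p = 0.746) and turned to 0.067 without control replicate 1. The other 2 tested MEX3 genes were not called in either comparison.

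FOLR1, the folate receptor alpha, is a membrane-anchored protein that takes up folate. The controls differed from each other, at 39.1 and 13.4 normalised CPM, the TRPS1 siRNA libraries stood at 6.61 and 4.99, and the CHD4 siRNA libraries at 31.2 and 27.99. TRPS1 siRNA lay below both controls, and CHD4 siRNA lay between them. The mean with TRPS1 siRNA was 5.80 ± 1.15 against 26.3 ± 18.1 with control siRNA (SD, n = 2 each), and control replicates 1 and 2 exceeded it 6.74 and 2.32 times. In edgeR the log2 fold change with TRPS1 siRNA was -2.18 (SE 0.60, adjusted p = 0.659), and the adjusted p was 0.126 by the edgeR likelihood ratio test and 0.0813 by DESeq2. The call was lost without TRPS1 replicate 2, with the unadjusted p above 0.05. With CHD4 siRNA the log2 fold change was 0.18 (SE 0.55, adjusted p = 0.944), but it ranged from -0.39 without control replicate 2 to 1.16, and called, without control replicate 1. Whether FOLR1 was also higher upon CHD4 silencing thus depended on the control library. The related receptor gene FOLR2 had 1 count in all 6 libraries together. Of 14 tested genes of folate uptake and use, none was called with TRPS1 siRNA and none was called higher with CHD4 siRNA. With CHD4 siRNA 2 were called lower, TYMS (thymidylate synthase, -2.09) and MTHFD1 (a folate-interconverting enzyme, -1.08).

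SOWAHA, a gene for an ankyrin repeat protein, was lower upon TRPS1 silencing by both control libraries. Its level was 117 and 100.6 normalised CPM with control siRNA, 39.4 and 39.8 with TRPS1 siRNA, and 97.3 and 111 with CHD4 siRNA. The TRPS1 siRNA libraries lay below the other 4, and the CHD4 siRNA libraries overlapped the controls. The control mean was 2.76 times the mean with TRPS1 siRNA, and 2.97 and 2.54 times by control replicates 1 and 2. The edgeR log2 fold change was -1.46 with TRPS1 siRNA (SE 0.33, adjusted p = 0.659) and -0.054 with CHD4 siRNA (SE 0.36, adjusted p = 0.979). The adjusted p with TRPS1 siRNA was 0.0753 by the edgeR likelihood ratio test and 0.0694 by DESeq2. The call was lost without TRPS1 replicate 1 (log2 fold change -1.43) and without TRPS1 replicate 2 (-1.45), with the unadjusted p above 0.05 in both cases, and was kept without control replicate 1 (-1.34) or 2 (-1.56). The other 2 tested SOWAH genes were not called.

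MCFD2 encodes a calcium-binding protein that, together with LMAN1, carries coagulation factors V and VIII from the endoplasmic reticulum to the Golgi. It stood at 65.99 and 121.6 normalised CPM with control siRNA, 42.5 and 39.5 with TRPS1 siRNA, and 106 and 101.7 with CHD4 siRNA. TRPS1 siRNA lay below both controls, and CHD4 siRNA lay between them. The control mean was 2.29 times the mean with TRPS1 siRNA, and 1.61 and 2.97 times by control replicates 1 and 2. In edgeR the log2 fold change was -1.19 with TRPS1 siRNA (SE 0.41, adjusted p = 0.659) and 0.16 with CHD4 siRNA (SE 0.42, adjusted p = 0.938). The call with TRPS1 siRNA was lost without control replicate 2 (log2 fold change -0.68) and, through an unadjusted p above 0.05, without TRPS1 replicate 1 or 2. With CHD4 siRNA the sign turned without control replicate 1 (-0.21). Of 17 tested genes of the LMAN1 partner and of transport between endoplasmic reticulum and Golgi, none was called with TRPS1 siRNA. With CHD4 siRNA 1 was called, LMAN2 (-1.26). LMAN1 stood at 146 and 299 with control siRNA, 215 and 231 with TRPS1 siRNA, and 128 and 80.8 with CHD4 siRNA.

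**Figure D2:**
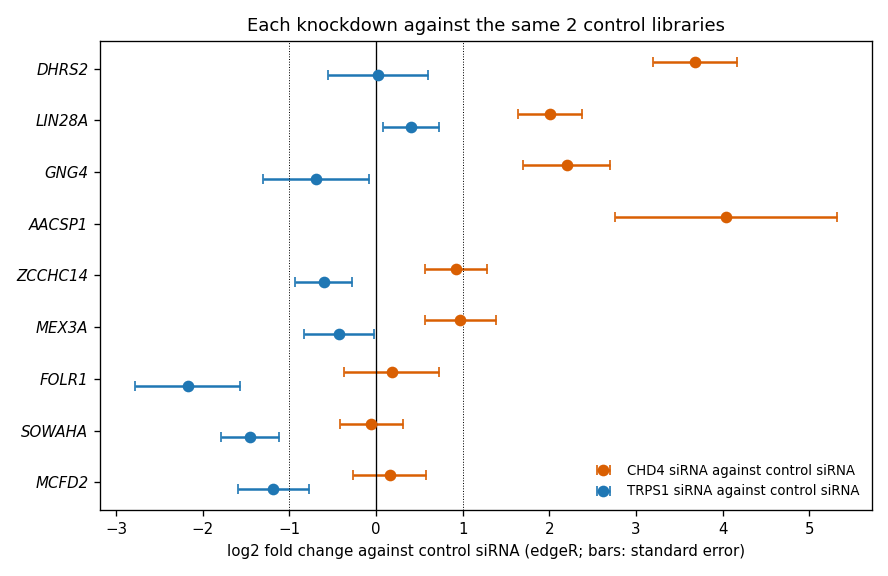
Log2 fold change against the same 2 control libraries (horizontal axis, edgeR) for CHD4 siRNA (orange) and TRPS1 siRNA (blue), with bars of 1 standard error and dotted lines at 2-fold; AACSP1 was not tested with TRPS1 siRNA. DHRS2, LIN28A, GNG4 and AACSP1 lie right of the upper line with CHD4 siRNA, and FOLR1, SOWAHA and MCFD2 lie left of the lower line with TRPS1 siRNA.

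Counted by library rather than by test, both CHD4 siRNA libraries lay above both controls for 6 genes (DHRS2, LIN28A, GNG4, AACSP1, ZCCHC14 and MEX3A), a pattern that 19.8% of all genes tested show. Both TRPS1 siRNA libraries lay below both controls for 5 genes (FOLR1, SOWAHA, MCFD2, GNG4 and ZCCHC14), a pattern of 21.6% of all genes tested. GNG4 and ZCCHC14 had both patterns, which 0.776% of the 13269 genes over the filter in the 6 libraries share. Of the other genes, 4 had only the first pattern (19.5% of these genes) and 3 only the second (20.6%). All 9 genes were higher in each CHD4 siRNA library than in either TRPS1 siRNA library, as were 22.8% of these genes, but that contrast chose them. Among the 278 genes called higher with CHD4 siRNA than with TRPS1 siRNA (2.12% of all tested), 46.8% had only the first pattern, 30.6% only the second, 15.5% both and 7.19% neither. By direct log2 difference the 9 genes ranked from 7 (DHRS2) to 140 (MCFD2, 1.35) of 13143 genes, so 140 genes, these 9 included, differed at least as much. Since the direct difference chose the 9 genes, these counts describe them and test nothing.

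Stress genes differed between replicates of both knockdowns. HSPA6, an inducible heat shock protein, stood at 3.59 and 1.36 normalised CPM with control siRNA, 24.3 and 3.15 with TRPS1 siRNA, and 62.0 and 3.85 with CHD4 siRNA. DDIT3, a transcription factor of the integrated stress response, stood at 10.8 and 16.2, 84.9 and 20.2, and 150.5 and 18.4. In both knockdowns replicate 1 carried most of the signal. Among the 9 genes, AACSP1, FOLR1, ZCCHC14 and MCFD2 had their higher CHD4 siRNA value in replicate 1, and DHRS2, LIN28A, GNG4, MEX3A and SOWAHA in replicate 2. The summed level of the 13 stress genes was 286 to 308 with control siRNA, 270 to 549 with TRPS1 siRNA and 276 to 993 with CHD4 siRNA, and 2 were called higher with CHD4 siRNA (HSPA6 and DDIT3) and 3 with TRPS1 siRNA (HSPA6, DDIT3 and GADD45A). The summed level of the 9 luminal markers was lower in both knockdowns, at 11455 to 14722 with control siRNA, 6226 to 6243 with TRPS1 siRNA and 5316 to 7071 with CHD4 siRNA. KRT8 (-1.85 and -1.88 with CHD4 and TRPS1 siRNA) and KRT19 (-1.44 and -1.39) were called lower in both and KRT18 (-1.45) with CHD4 siRNA. These keratins carried the sum: the other 6 markers were not called, and EPCAM (0.28 and 0.37 with CHD4 and TRPS1 siRNA) and FOXA1 with CHD4 siRNA (0.21) had positive log2 fold changes. The summed level of the 6 markers of other cell types overlapped between groups, at 76.1 to 172, 108 to 129 and 84.0 to 115 for control, TRPS1 and CHD4 siRNA, and came from COL1A1 and ACTA2. The part of stress genes and keratins in the results of the 9 genes was not tested.

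TRPS1 itself was mapped by ChIP-seq, a readout the choice of genes did not use. The deposited list holds 1844 peaks (hg38) with a median width of 288.0 bp, and it is 1 list for all ChIP-seq libraries, so no peak has a replicate error. Of the 6 genes with a listed start, SOWAHA and MCFD2 had a peak within 50 kb of it, beside 11.8% of all 13709 such genes. Both peaks were also within 5 kb of a start, beside 3.65% of these genes. The SOWAHA peak, chr5:132810636-132810872, lay 2430 bp from the start of SOWAHA (chr5:132813302-132816786, plus strand). The MCFD2 peak, chr2:46918872-46919166, lay inside the annotated span of the gene (chr2:46901870-46941855) and 2760 bp from the nearest listed start. Both of these genes were called lower with TRPS1 siRNA, and neither was called with CHD4 siRNA.

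The peaks of the other genes were farther away. Counted from the whole gene body, 4 of the 9 genes had a peak within 50 kb, beside 14.7% of 17801 genes. The added genes were ZCCHC14 (chr16:87406248-87493024), with a peak 13703 bp beyond its body, and DHRS2 (chr14:23630115-23645639), with a peak 48866 bp away. For MEX3A (chr1:156072013-156082465), FOLR1 (chr11:72189709-72196323), LIN28A (chr1:26410817-26429728), GNG4 (chr1:235547685-235650608) and AACSP1 (chr5:178764861-178818435) the nearest peak was 130682 to 1471079 bp away. FOLR1, which was called lower with TRPS1 siRNA like SOWAHA and MCFD2, had its nearest peak at 237836 bp.

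For the 19 tested genes that overlap or flank the 9 on the chromosome, the direct log2 difference between CHD4 siRNA and TRPS1 siRNA lay between -0.54 and 0.50. The 9 genes were chosen by this difference and their neighbours were not, so no comparison is drawn between them. LMNA, which encodes the nuclear lamins A and C and lies 108 bp from MEX3A, differed by 0.046. MAP1LC3B, an autophagy gene 1474 bp from ZCCHC14, differed by 0.31. Against the controls, SHROOM1, a neighbour of SOWAHA, was called lower in both comparisons (-1.44 with CHD4 siRNA and -1.43 with TRPS1 siRNA). SHROOM1 stood at 24.2 and 10.6 normalised CPM with control siRNA, 6.52 and 6.30 with TRPS1 siRNA, and 5.41 and 7.30 with CHD4 siRNA. The size of its fall thus depended on control replicate 1. ZNF354A, a neighbour of AACSP1, was called higher with TRPS1 siRNA (1.37). TTC7A overlaps MCFD2 and stood at 33.4 and 15.8 normalised CPM with control siRNA, 10.2 and 15.4 with TRPS1 siRNA, and 11.6 and 24.1 with CHD4 siRNA. Whether the counting used strand is not given in the sources used here, so reads of overlapping genes may be shared.

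**Figure D3:**
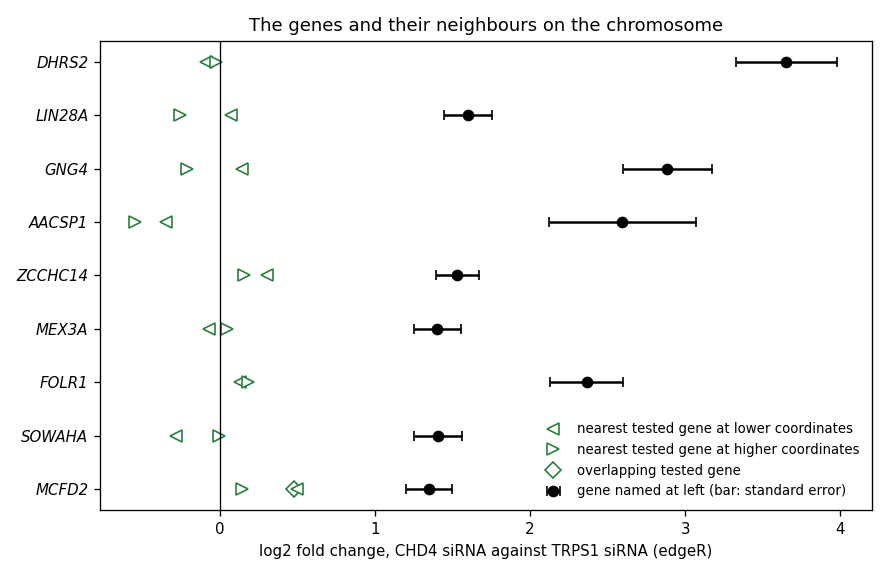
Direct log2 fold change of CHD4 siRNA against TRPS1 siRNA (horizontal axis, edgeR) of each of the 9 genes (black, bar of 1 standard error) and of its tested neighbours at lower and higher coordinates and overlapping genes (green). Every neighbour lies between -0.54 and 0.50, and the 9 genes, which this value chose, lie between 1.35 and 3.65.

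Among the subunits of NuRD, the complex CHD4 works in, GATAD2A, which links CHD4 to the deacetylase part of the complex, was called lower with TRPS1 siRNA. It stood at 93.9 and 50.4 normalised CPM with control siRNA, 20.1 and 17.3 with TRPS1 siRNA, and 70.7 and 81.8 with CHD4 siRNA. TRPS1 siRNA lay below both controls and CHD4 siRNA between them, the same order as in FOLR1 and MCFD2. Its edgeR log2 fold change with TRPS1 siRNA was -1.94 (SE 0.44, adjusted p = 0.659). Control replicates 1 and 2 exceeded the mean with TRPS1 siRNA 5.02 and 2.70 times. Of the 15 tested subunits GATAD2A was the only one called with TRPS1 siRNA, beside 3.17% of all genes called lower. CHD4, the target of the siRNA, was the only one called with CHD4 siRNA, beside 2.85% called lower. MBD2 (-0.99) and MTA2 (-0.92) fell just short of 2-fold with CHD4 siRNA. Over the 10 lists of relatives and partners of the 9 genes, 70 genes were tested in each comparison. With CHD4 siRNA 0 were called higher and 4 lower, beside 2.60% and 2.85% of all genes tested. With TRPS1 siRNA 3 were called higher and 1 lower, beside 2.70% and 3.17%. No pattern is read from such small counts. The median log2 fold change of these 70 was -0.064 with CHD4 siRNA and -0.16 with TRPS1 siRNA.

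The genes whose levels over the 6 libraries most resembled the mean standardized profile of the 9 were MT1X, a metallothionein that binds zinc and copper, KIF3B, a kinesin motor subunit, NLGN4X, a neuronal adhesion protein, RPH3AL and CLDN8, a claudin of tight junctions. Pearson's r on log2(CPM + 0.5) was 0.988, 0.987, 0.985, 0.978 and 0.978, the highest among 13260 genes over 6 libraries that share groups, which makes it a description only. MT1X stood at 3.81 and 2.94 normalised CPM with control siRNA, 2.40 and 2.43 with TRPS1 siRNA, and 7.93 and 8.10 with CHD4 siRNA. KIF3B stood at 206 and 224, 185 and 191, and 300 and 305. Both genes thus had TRPS1 siRNA lowest and CHD4 siRNA highest, with no overlap between groups, as GNG4 and ZCCHC14 did.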

How the data were processed

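RNA-seq of T47D cells was analysed, with 2 libraries for each siRNA condition, grouped by label. Reads were trimmed and aligned by the authors with STAR, and HTSeq (0.9.0) gave the deposited counts per gene, which are not normalised. ChIP-seq reads were aligned by the authors with BWA (0.7.12-r1039), and the deposited peak positions were called with MACS2 (2.1.1) on hg38. The 9 genes, the gene lists and the tests were chosen with earlier results of these data known.

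Each pair of groups was fitted in edgeR (4.0.16, R 4.3.3): genes above 2 CPM in 2 or more of the 4 libraries entered, with TMM, quasi-likelihood F-test, Benjamini-Hochberg adjustment over all genes tested. The fit was run on simulated counts. Recovery of the changed genes was required only where libraries differed little, and not at the spread of these data. Named genes are the 9, CHD4 and TRPS1, up to 3 called genes of each list with the largest fold changes, and the 5 genes most like the 9. Flanking genes, LIN28B, HMGA2, FOLR2, LMAN1 and AACS fall outside this rule and were named after their values were seen. Alternatives were edgeR's likelihood ratio test, DESeq2 (1.42.0), RLE factors, library sizes alone, other filters, a prior count of 2, a replicate block, a single fit of the 6 libraries and leaving out each library. Promoters and gene positions are from RefSeq (GRCh38.p14), matched by symbol. Figures were drawn with matplotlib (3.10.9).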

Additional observations from a re-analysis of the deposited data

Results flagged for a closer look

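For GNG4 and ZCCHC14 every CHD4 siRNA library lay above both controls and every TRPS1 siRNA library below both, which is why they are listed here. The log2 fold changes with CHD4 siRNA and with TRPS1 siRNA differed by 2.89 for GNG4 and by 1.53 for ZCCHC14. The difference was not tested, because the contrast of the knockdowns chose these genes, and both fold changes share the same control libraries.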

How the results depend on the processing

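The level of every gene rests on 2 libraries per group, and control replicate 1 stands apart from the rest. With CHD4 siRNA, DHRS2, LIN28A, GNG4, ZCCHC14 and MEX3A kept the direction of their log2 fold change under every alternative tested. FOLR1, SOWAHA and MCFD2 did so with TRPS1 siRNA. AACSP1 passed the filter only through the CHD4 siRNA libraries, where it is high, so its constant direction carries no weight. Leaving out 1 library leaves 1 library in its group. For those fits the share of all genes called in the same direction is not given. The counts of chosen genes called in those fits, listed below, thus have no matching background and support no conclusion.

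Genes over 2-fold with an unadjusted p under 0.05 numbered 704 with CHD4 siRNA and 759 with TRPS1 siRNA, and 1403 and 1359 without a filter on low counts. The direct comparison gave 483, with 751 without a filter, 313 with over 2 CPM in every library and 320 with all 6 libraries in one fit. At an adjusted p under 0.05 the quasi-likelihood test gave 0, edgeR's likelihood ratio test 58 with CHD4 siRNA and 34 with TRPS1 siRNA, DESeq2 50 and 39, and no filter 111 with CHD4 siRNA. Leaving out 1 library gave 91 to 3969 genes called with CHD4 siRNA (adjusted: 0 to 3874), 74 to 4304 with TRPS1 siRNA (adjusted: 0 to 6070) and 482 to 724 in the direct comparison. Of the 9 genes, 2 to 7 were then called higher with CHD4 siRNA, with 7 without control replicate 1 and 2 without CHD4 replicate 2, and 0 to 3 lower with TRPS1 siRNA, with 1 and 0 without TRPS1 replicates 1 and 2.

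With the replicate number as a block, 1221 genes were called with TRPS1 siRNA, and 44 (CHD4 siRNA) and 32 (TRPS1 siRNA) passed an adjusted p of 0.05. Deviations of replicate 1 correlated at 0.62 between the knockdowns but at 0.051 between control and TRPS1 siRNA and 0.0095 between control and CHD4 siRNA. Because control replicate 1 stands apart from the rest, these values cannot decide whether the numbers pair the control libraries with the knockdowns. MEX3A was called higher with CHD4 siRNA under the block (1.03).

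The sign turned for small changes. With CHD4 siRNA and 1 library left out, FOLR1 ranged from -0.39 to 1.16 (without control replicates 2 and 1), MCFD2 from -0.21 to 0.67 (without control replicates 1 and 2) and SOWAHA from -0.16 to 0.073, with 0.061 without CHD4 replicate 1. SOWAHA was 0.081 with library sizes alone. With TRPS1 siRNA, DHRS2 ranged from -0.22 to 0.24 (without TRPS1 replicates 2 and 1) and was -0.0066 without a filter, and MEX3A ranged from -0.79 to 0.067 (without control replicates 2 and 1). Library sizes alone brought ZCCHC14 (1.05) and MEX3A (1.11) past the call with CHD4 siRNA, and the filter of over 2 CPM in every library did so for MEX3A (1.03). Peaks within 50 kb were found for 4 of the 9 genes from the gene body, beside 14.7% of all genes with a position. From the start they were found for 2 of the 6 genes with a listed start, beside 11.8% of all such genes. Within 100 kb of the start 3 of the 6 had a peak, beside 19.8%. The cause of these changes was not tested.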
